A study of Drosophila melanogaster and Drosophila simulans and Drosophila sechellia with 48 samples.

Results

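The genes cu, Swim, PLCXD and CG7409 are 4 genes that stand far higher in newly emerged adult males than in late pupae of 3 Drosophila species and of a species hybrid. They were chosen for a rise from late pupae to adults, so the adult minus late pupal difference below is what picked them and is given as a description with no test. The array holds 13824 cDNA elements, each printed as 2 spots. Of these, 5251 have values in at least 1 of the species or the hybrids, 3736 have values and 1 gene name, and 5 elements belong to the 4 genes. One of the 2 elements of Swim has no value on any array and was left out. The other 4, 1 per gene, have values on all 48 arrays, as 2535 elements of the array do.

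The 48 arrays measured RNA of whole males in 16 groups of 3 arrays, each RNA from a pool of 25 males. The groups are sterile F1 hybrids of D. simulans females and D. sechellia males, D. melanogaster (strain 14021-0231.00), D. sechellia (the Cousin Island strain) and D. simulans (strain 14021-0251.2), each taken as larvae at 96 h, early pupae at 4 h and late pupae at 72 h after puparium formation, and adults at 1.5 h after eclosion. The larval time counts from larval emergence. The 3 hybrid arrays of a stage come from 3 pools, whereas the 3 arrays of a species at a stage are repeat hybridizations of 1 pool, so a species stands for 1 strain and 1 pool of males at each stage. In 7 groups a pair of the 3 arrays had near-identical values and counts as 1 array in the means: hybrid adults (1 and 2), D. melanogaster early pupae (1 and 2), D. sechellia early pupae (1 and 3), late pupae (1 and 2) and adults (1 and 3), and D. simulans late pupae and adults (1 and 3 in both). Every array carried the sample, amplified in 2 rounds, against a common reference, unamplified RNA of D. melanogaster males of all 4 stages mixed. Each value is log2(sample/reference), where a difference of 1 is a 2-fold change. At 0 the corrected signals of sample and reference are equal. Only the sample was amplified, so 0 need not mean equal amounts of RNA. For cu, all D. melanogaster arrays lay below 0, although the reference mixes those same stages. Above or below the reference thus refers to signal, and differences between groups are the safer reading. Because whole bodies were used, fewer cells of a type and less RNA per cell cannot be told apart.

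Eclosion is the emergence of the adult fly from the pupal case, after which the wings are spread and the cuticle tans and hardens under hormonal control. The 4 genes belong to unrelated families. The gene cu (curled, CG31299, chromosome arm 3R) encodes the fly member of the Nocturnin branch of the CCR4-like nucleases, a family that includes enzymes that shorten the poly(A) tails of mRNA. Flies mutant for it hold their wings curled upwards. Swim (Secreted Wg-interacting molecule, CG3074, 2R) encodes a secreted relative of the papain-like cysteine proteases, described as a carrier of the lipid-bearing signal protein Wingless outside the cell. PLCXD (CG14945, 2L) encodes a protein with the catalytic X domain of the phospholipases C that cut phosphatidylinositol lipids. CG7409 (3L) encodes a member of the small heat shock proteins, chaperones with an alpha-crystallin domain that hold unfolding proteins in solution.

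In all 4 groups and for all 4 genes, the 3 adult arrays lay above every array of the other stages, which makes 16 of 16 cases. The same pattern was found in 5.36% of all elements in the hybrids and 9.8% in D. melanogaster, with 15.6% in D. sechellia and 9.47% in D. simulans. Since the genes were chosen on the adult side of this pattern, nothing is read from the count. The late pupal arrays lay below every array of the other stages for cu and Swim in hybrids (5.62% of all elements), for cu, Swim and PLCXD in D. melanogaster (6.66%), for cu and Swim in D. sechellia (7.3%) and for Swim alone in D. simulans (6.76%), and nothing is read from these counts either, since a low late pupal level enters the same choice. The choice did not use larvae or early pupae. The late pupal low points and the late minus early pupal differences below share the late pupal level with the choice, and are given as description. The course before eclosion differed between the genes.

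**Figure D1:**
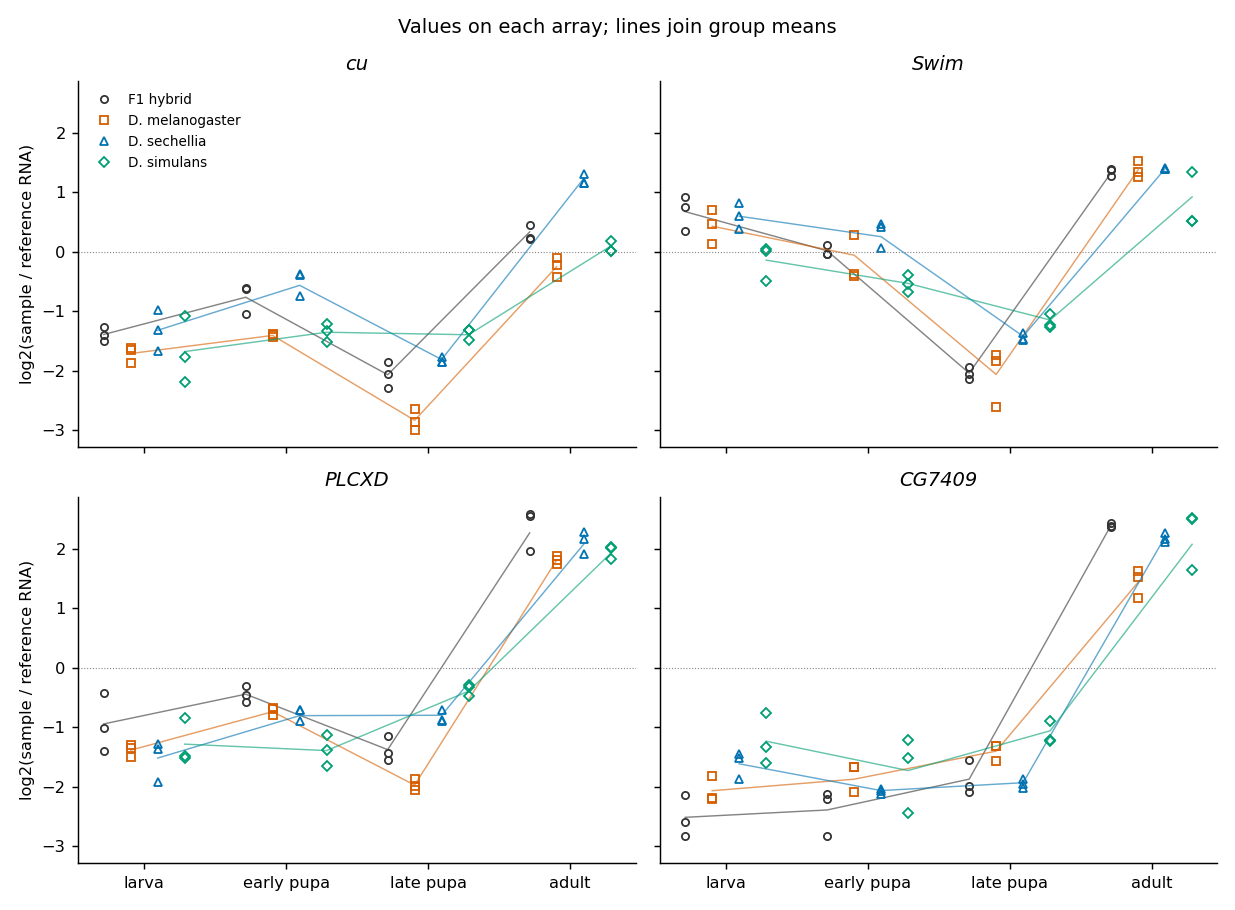
log2(sample/reference) of cu, Swim, PLCXD and CG7409 (1 panel each) on every array, by stage, for F1 hybrids (circles), D. melanogaster (squares), D. sechellia (triangles) and D. simulans (diamonds). Lines join group means. Adult arrays lie highest in every panel and group, whereas the lowest stage differs between genes and, for cu, PLCXD and CG7409, between groups.

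The Nocturnin gene cu was below the reference at all 3 stages before eclosion. On the hybrid arrays it was at -1.27, -1.505 and -1.40 in larvae and -1.04, -0.63 and -0.61 in early pupae, then -1.85, -2.29 and -2.06 in late pupae and 0.21, 0.23 and 0.45 in adults. On those of D. melanogaster it was at -1.65, -1.62 and -1.86 in larvae and -1.38, -1.39 and -1.43 in early pupae, then -2.86, -2.64 and -3.0 in late pupae and -0.11, -0.42 and -0.23 in adults. Both courses passed through a low point in late pupae, below the level of larvae and of early pupae, with no overlap of the arrays. In D. sechellia cu stood at -1.68, -0.98 and -1.31 in larvae and -0.37, -0.75 and -0.39 in early pupae, then -1.86, -1.85 and -1.77 in late pupae and 1.15, 1.31 and 1.15 in adults, again lowest in late pupae and with the highest adult level of the 4 groups. In D. simulans it stood at -2.19, -1.76 and -1.08 in larvae and -1.51, -1.33 and -1.21 in early pupae, then -1.31, -1.48 and -1.31 in late pupae and 0.01, 0.18 and 0.01 in adults. Here there was no late pupal low point: the late pupal arrays overlapped those of early pupae and the lowest mean was that of larvae. Relative to early pupae, the late pupal mean of cu differed by -1.30 in hybrids and -1.43 in D. melanogaster, with -1.25 in D. sechellia and -0.04 in D. simulans on the log2 scale. Only in D. melanogaster did all 3 adult arrays remain below the reference level of 0.

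Swim was above the reference on 28 of the 48 arrays and below it on all late pupal arrays. It was at 0.75, 0.93 and 0.35 in larvae and -0.04, 0.12 and -0.03 in early pupae, then -1.93, -2.05 and -2.14 in late pupae and 1.39, 1.38 and 1.28 in adults on the hybrid arrays. D. melanogaster gave 0.46, 0.13 and 0.70 in larvae and -0.37, -0.41 and 0.28 in early pupae, then -1.83, -2.61 and -1.74 in late pupae and 1.26, 1.34 and 1.53 in adults. In both, the late pupal arrays lay below all others without overlap, and the larval mean was the closest to that of adults. D. sechellia gave 0.38, 0.60 and 0.81 in larvae and 0.41, 0.07 and 0.46 in early pupae, then -1.48, -1.47 and -1.37 in late pupae and 1.42, 1.39 and 1.39 in adults. D. simulans gave -0.49, 0.02 and 0.05 in larvae and -0.54, -0.38 and -0.67 in early pupae, then -1.24, -1.05 and -1.26 in late pupae and 0.51, 1.33 and 0.51 in adults. The order of the means was the same in all 4 groups: late pupae, early pupae, larvae, adults, from low to high. The late pupal minus early pupal difference of Swim was -2.06 in hybrids and -2.01 in D. melanogaster, with -1.67 in D. sechellia and -0.62 in D. simulans, shallowest in this last group. Adults exceeded larvae by 0.66 in hybrids and 0.95 in D. melanogaster, with 0.80 in D. sechellia and 1.06 in D. simulans, less than they exceeded late pupae in each group.

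The phospholipase gene PLCXD was below the reference on all arrays before eclosion and above it on all 12 adult arrays. Hybrids gave -0.42, -1.39 and -1.02 in larvae and -0.30, -0.46 and -0.57 in early pupae, then -1.15, -1.54 and -1.43 in late pupae and 2.56, 2.59 and 1.97 in adults. In D. melanogaster the values were -1.35, -1.30 and -1.503 in larvae and -0.67, -0.70 and -0.79 in early pupae, then -1.86, -2.06 and -1.99 in late pupae and 1.75, 1.81 and 1.89 in adults. As for cu, late pupae had the lowest mean in both groups, although the hybrid larval arrays overlapped the late pupal ones. In D. sechellia the values were -1.92, -1.27 and -1.36 in larvae and -0.71, -0.89 and -0.71 in early pupae, then -0.88, -0.90 and -0.70 in late pupae and 2.29, 1.92 and 2.17 in adults, and in late pupae the gene stood where it had stood in early pupae. In D. simulans they were -1.49, -1.52 and -0.84 in larvae and -1.65, -1.13 and -1.39 in early pupae, then -0.29, -0.48 and -0.31 in late pupae and 2.03, 1.83 and 2.01 in adults. The late pupal arrays of D. simulans lay above all its early pupal and larval arrays, as did those of 14.1% of all elements, with a mean 1.00 above that of early pupae, whereas hybrids and D. melanogaster moved the other way, by -0.93 and -1.23. The adult means of PLCXD lay close together, at 2.27 in hybrids and 1.81 in D. melanogaster, with 2.08 in D. sechellia and 1.93 in D. simulans.

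CG7409, the small heat shock protein gene, was below the reference on all arrays before eclosion and above it on all 12 adult arrays. Its values in hybrids were -2.14, -2.82 and -2.58 in larvae and -2.83, -2.21 and -2.12 in early pupae, then -1.99, -2.08 and -1.54 in late pupae and 2.38, 2.36 and 2.43 in adults. Those of D. melanogaster gave -2.20, -1.81 and -2.19 in larvae and -1.66, -1.66 and -2.08 in early pupae, then -1.32, -1.57 and -1.31 in late pupae and 1.17, 1.53 and 1.63 in adults. No pre-adult array of either group rose above -1.31. The D. sechellia values were -1.45, -1.52 and -1.87 in larvae and -2.08, -2.03 and -2.12 in early pupae, then -2.03, -1.95 and -1.87 in late pupae and 2.12, 2.26 and 2.17 in adults. The D. simulans values were -1.33, -1.61 and -0.76 in larvae and -2.45, -1.22 and -1.52 in early pupae, then -1.23, -0.89 and -1.22 in late pupae and 2.50, 1.64 and 2.53 in adults, where the highest and the median array are a near-identical pair, so that 2 distinct adult arrays differ here. Unlike cu and Swim, CG7409 had no late pupal low point: the late pupal mean was above that of early pupae in all 4 groups, by 0.52 in hybrids and 0.47 in D. melanogaster, with 0.13 in D. sechellia and 0.67 in D. simulans. Arrays of those 2 stages overlapped in D. simulans, and in D. sechellia the highest early pupal and the lowest late pupal array both stood at -2.03. Adults exceeded larvae by 4.92 in hybrids (30.2-fold) and 3.51 in D. melanogaster (11.4-fold), with 3.82 in D. sechellia (14.1-fold) and 3.31 in D. simulans (9.92-fold).

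The adult minus late pupal differences on which the genes were chosen were as follows. For CG7409 the adult mean exceeded the late pupal mean by 4.27 in hybrids (19.3-fold) and 2.84 in D. melanogaster (7.16-fold), with 4.14 in D. sechellia (17.6-fold) and 3.14 in D. simulans (8.79-fold). For PLCXD the differences were 3.64 in hybrids and 3.78 in D. melanogaster, with 2.87 in D. sechellia and 2.32 in D. simulans, between 4.98-fold and 13.8-fold. Swim differed by 3.37 in hybrids and 3.44 in D. melanogaster, with 2.82 in D. sechellia and 2.07 in D. simulans, between 4.2-fold and 10.9-fold. The difference for cu was 2.40 in hybrids and 2.58 in D. melanogaster, with 3.04 in D. sechellia and 1.49 in D. simulans, between 2.81-fold and 8.24-fold. D. simulans had the smallest difference for cu, Swim and PLCXD, and D. melanogaster for CG7409. Averaged over the 3 species, the genes ranked 2 (CG7409), 4 (PLCXD), 8 (Swim) and 15 (cu) of 2830 elements, whose median difference was -0.01. No numerical limit entered the rule, and other elements share these ranks: Sclp ranked 1 at 4.21, both elements of CG9399 ranked 5 and 6, the muscle gene Mp20 ranked 9 and the opsin gene Rh2 ranked 10, while the ranks on either side of cu, 14 and 16, belong to elements with no gene name here, at 2.43 and 2.37 against 2.37 for cu.

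**Figure D2:**
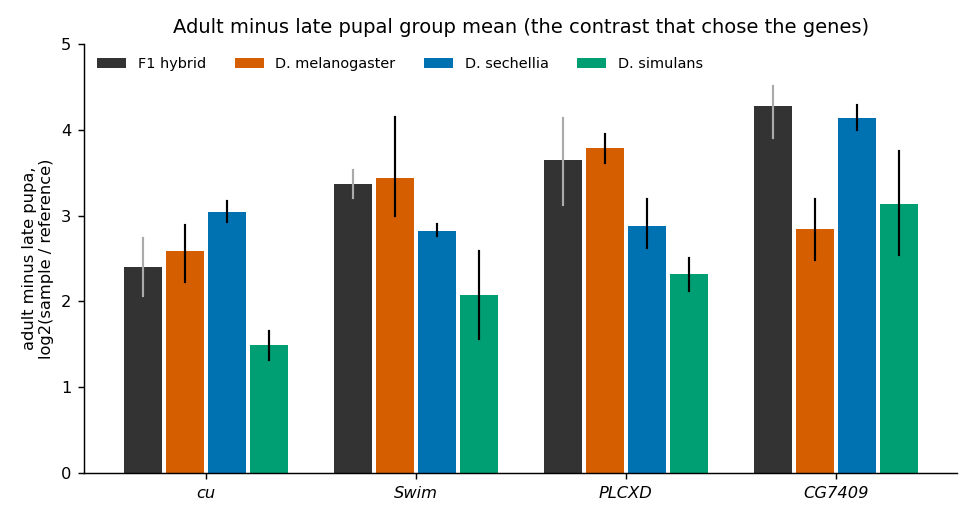
Adult minus late pupal difference of the group means, log2(sample/reference), of the 4 genes in the F1 hybrids and each of the 3 species, the contrast on which the genes were chosen. Vertical lines run from the smallest to the largest difference between an adult and a late pupal array. Bars start at 0, and the lowest is that of cu in D. simulans at 1.49.

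Over the 16 group means, PLCXD and CG7409 had the most similar courses (Pearson r = 0.92), followed by cu and PLCXD (0.89), cu and Swim (0.81), cu and CG7409 (0.78), Swim and PLCXD (0.69) and Swim and CG7409 (0.58). These values describe courses that share arrays, a reference and the adult rise for which the genes were chosen, and no test is attached to them. The 12 means without adults still hold the late pupal groups, which entered the choice. Over these 12 means, r was 0.69 between cu and Swim, 0.68 between cu and PLCXD and 0.23 between Swim and PLCXD. CG7409 had negative values there with cu (-0.41), Swim (-0.44) and PLCXD (-0.25), so its likeness to PLCXD rests on the adult groups.

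Apart from the 4 genes themselves, the named elements whose 16 means were most like those of each gene were aop (r = 0.90), an ETS-family repressor downstream of receptor tyrosine kinases, and Sclp (0.86) for cu. They were CG4607 (0.93), SREBP (0.88), the regulator of lipid synthesis genes, CG8036 (0.88) and CG32095 (0.86) for Swim, and CG8483 (0.92) for PLCXD. For CG7409 they were Rh2 (0.94), the opsin of the ocelli, CG9399 (0.93) and CG8520 (0.93). Among the 5 most similar elements, 2 for cu, 1 for Swim, 3 for PLCXD and 2 for CG7409 have no gene name here, PLCXD is 1 for cu and CG7409 is 1 for PLCXD, and 1 of the unnamed elements reached 0.99 with PLCXD. Swim and cu each had 1 element above 0.9, PLCXD had 6 and CG7409 had 12. SREBP, like Swim, was lowest in late pupae in all 4 groups, with an adult minus late pupal difference of 1.13 in hybrids and 0.98 in D. melanogaster, with 0.60 in D. sechellia and 1.02 in D. simulans. Rh2, like CG7409, was highest in adults in all 4, with differences of 2.86 in hybrids and 2.52 in D. melanogaster, with 3.89 in D. sechellia and 1.60 in D. simulans.

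**Figure D3:**
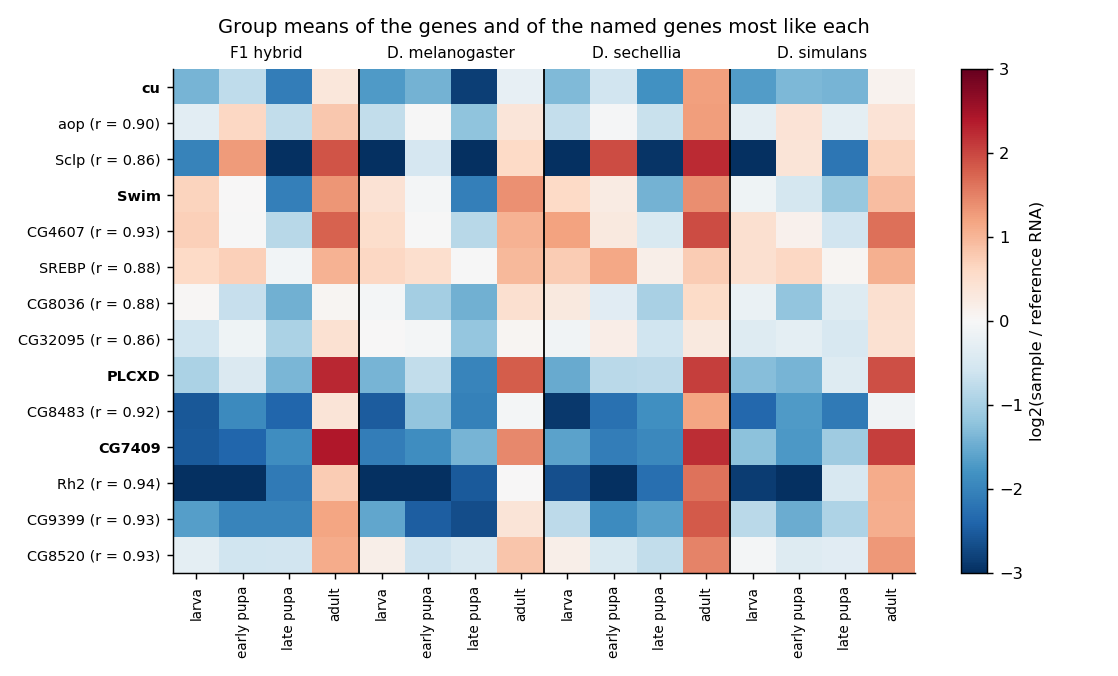
Group means, log2(sample/reference), of cu, Swim, PLCXD and CG7409 (bold) and, under each, of the named genes most like it over the 16 groups, with their r. Columns are the 4 stages in F1 hybrids, D. melanogaster, D. sechellia and D. simulans. Colours end at -3 and 3, so that values beyond these look alike, and the adult column is the highest of its group in all 4 bold rows.

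The change between larvae and early pupae was not part of the choice and was tested by limma over all elements, with calls set at 1.5-fold or more, 0.58 in log2 terms, and an adjusted p below 0.05. Of the 16 tests, 4 genes in 4 groups, 1 was called: Swim fell in hybrid early pupae by 0.66 relative to larvae (SE 0.21, adjusted p = 0.0359). Its 3 early pupal hybrid pools, at 0.02 on average, lay below the 3 larval pools, at 0.68, without overlap, a pattern found in 15.1% of all elements. The 2 spots of Swim on hybrid larval replicate 3 stood at 0.84 and -0.15, the widest spot gap of the 4 genes. The second of these lay below the 3 early pupal hybrid values, so the lack of overlap holds for spot averages only. Called elements in either direction made up 19.4% of those tested in hybrids and 4.02% in D. melanogaster, with 9.02% in D. sechellia and 5.04% in D. simulans, so 1 call among 4 genes in the hybrids is near the background. The means of Swim in early pupae minus larvae were -0.49 in D. melanogaster, with -0.34 in D. sechellia and -0.39 in D. simulans, none of which was called.

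The mean of cu was 0.63 higher in hybrid early pupae than in larvae (SE 0.22), just short of the threshold with an adjusted p of 0.0503, and the differences were 0.30 in D. melanogaster, then 0.76 in D. sechellia and 0.33 in D. simulans. PLCXD differed by 0.50 in hybrids (adjusted p = 0.212) and 0.65 in D. melanogaster, with 0.71 in D. sechellia and -0.11 in D. simulans. For CG7409 the differences were 0.12 in hybrids and 0.19 in D. melanogaster, with -0.45 in D. sechellia and -0.49 in D. simulans. In the mean of the 3 species, where 24.6% of elements were called, none of the 4 genes was: cu stood at 0.46, Swim at -0.41, PLCXD at 0.42 and CG7409 at -0.25. The differences between groups in this change were tested as well, in 5 pairs of groups for each gene, and none passed in limma, where 0.0129% of such tests over all elements did. At an unadjusted p under 0.05 there were 0, where 4.89% of tests over all elements were. The widest was that of PLCXD between D. sechellia and D. simulans, 0.82 with a 95% interval between -0.52 and 2.16.

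One of the 3 hybrid larval arrays, replicate 1, stood apart from the other hybrid larval arrays over all elements, with an SD of the difference of 0.70 and 0.68 against 0.37 between those. Without it, 3 of the 16 tests were called, all in the hybrids: PLCXD rose in early pupae by 0.76 (SE 0.24, adjusted p = 0.022), cu rose by 0.69 (SE 0.23, adjusted p = 0.0292) and Swim fell by 0.62 (SE 0.23, adjusted p = 0.0465). The hybrid background then was 29.6%. Without hybrid larval replicate 2 the call of Swim was lost (adjusted p = 0.177), as it was in 9 of 27 alternatives.

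**Figure D4:**
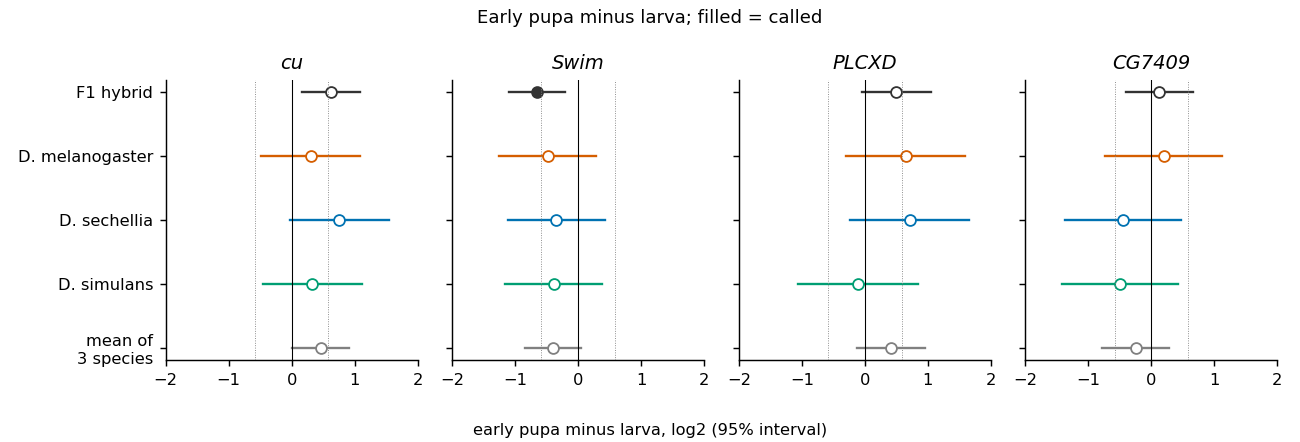
Early pupal minus larval difference (log2) of the 4 genes with its 95% interval in F1 hybrids, in each species and in the mean of the 3 species. The filled point is the one call, Swim in hybrids at -0.66, and dotted lines mark a 1.5-fold change.

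Differences between hybrids and their parents, and between species, were tested within each stage. The genes were chosen by a change between stages and not by a difference between groups. Late pupal and adult arrays entered that choice, however, so tests at these stages are not independent of it. The probes are D. melanogaster cDNA, so that a difference in level and a difference in hybridization cannot be told apart in comparisons between species. None of the 80 tests, 4 genes in 5 pairs of groups at 4 stages, was called in limma. At an unadjusted p under 0.05 there were 19, of which 9 were in late pupae, 4 in early pupae, 3 in larvae and 3 in adults, out of 20 tests at each stage. Over all elements, the share of tests at that level was 10.8% in larvae and 9.23% in early pupae, with 11.8% in late pupae and 12.2% in adults, and 11% over the 4 stages, so that the counts in larvae and adults are near the background. By gene they were 8 for cu, 4 for Swim, 4 for PLCXD and 3 for CG7409. No excess is read from the 9 in late pupae, a stage whose level entered the choice. Over the 5 pairs together, 0.0388% of tests on all elements were called in larvae and 0.68% in early pupae, with 0.317% in late pupae and 1.11% in adults, so that 0 calls in 20 per stage is near the background.

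The widest difference was that of PLCXD in late pupae, where D. melanogaster was on the low side for cu, Swim and PLCXD. The gene cu was at -2.86, -2.64 and -3.0 in D. melanogaster late pupae, against -1.31, -1.48 and -1.31 in those of D. simulans, a difference of -1.44 (SE 0.37, adjusted p = 0.0712, 0.494% of elements called). PLCXD differed by -1.58 in the same comparison (SE 0.45, adjusted p = 0.0948) and Swim by -0.91 (adjusted p = 0.216). Against D. sechellia late pupae, D. melanogaster differed by -1.02 for cu and by -1.17 for PLCXD (adjusted p = 0.198 and 0.222). Late pupal means highest in D. simulans and lowest in D. melanogaster were not particular to these genes. Rh2 stood at -0.49 and -2.51 in these species and Mp20 at -0.86 and -3.42, and aop, Sclp, CG32095 and CG9399 had the same order. CG4607, SREBP, CG8036, CG8483 and CG8520 had another order. Whether the late pupal samples differ as a whole was not tested. Hybrid late pupae were lower than those of D. simulans by their means for all 4 genes, at -0.67 for cu, -0.89 for Swim, -0.98 for PLCXD and -0.81 for CG7409, with adjusted p between 0.167 and 0.318. For Swim and PLCXD the 3 hybrid pools lay below every array of both parents, as they did for 7.64% of all elements. For cu they overlapped D. sechellia, and for CG7409 likewise.

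In adults the widest differences were those of cu. It was at -0.11, -0.42 and -0.23 in D. melanogaster, against 1.15, 1.31 and 1.15 in D. sechellia, a difference of -1.48 (SE 0.37, adjusted p = 0.0995, 0.279% called). Hybrid adults differed from D. sechellia by -0.90 (adjusted p = 0.179) and D. sechellia from D. simulans by 1.14 (adjusted p = 0.677). The adult arrays of cu in D. sechellia lay above all adult arrays of the other 3 groups, as they did for 8.36% of all elements, and 2 of those 3 arrays are a near-identical pair. For the other 3 genes, no adult difference between groups reached an unadjusted p of 0.05. Their 95% intervals remain wide: that of Swim between hybrids and D. simulans, for example, ran between -0.26 and 1.07.

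In larvae CG7409 was at -2.14, -2.82 and -2.58 in hybrids, against -1.33, -1.61 and -0.76 in D. simulans and -1.45, -1.52 and -1.87 in D. sechellia. The hybrid pools lay below all arrays of both parents, a pattern of 10.3% of all elements, by -1.28 against D. simulans (SE 0.36, adjusted p = 0.169, 0.11% called) and -0.90 against D. sechellia (adjusted p = 0.206). Without hybrid larval replicate 1, CG7409 was called in the first of these at -1.47 (adjusted p = 0.0341), and so were cu in D. melanogaster against D. simulans late pupae (adjusted p = 0.0243), PLCXD in the same comparison (adjusted p = 0.0206) and cu in D. melanogaster against D. sechellia adults (adjusted p = 0.0355). The array takes no part in the last 3 values, which it reaches through the spread of the hybrid pools that is assumed for all groups. The backgrounds were then 1.94%, 6.06% and 2.57%.

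**Figure D5:**
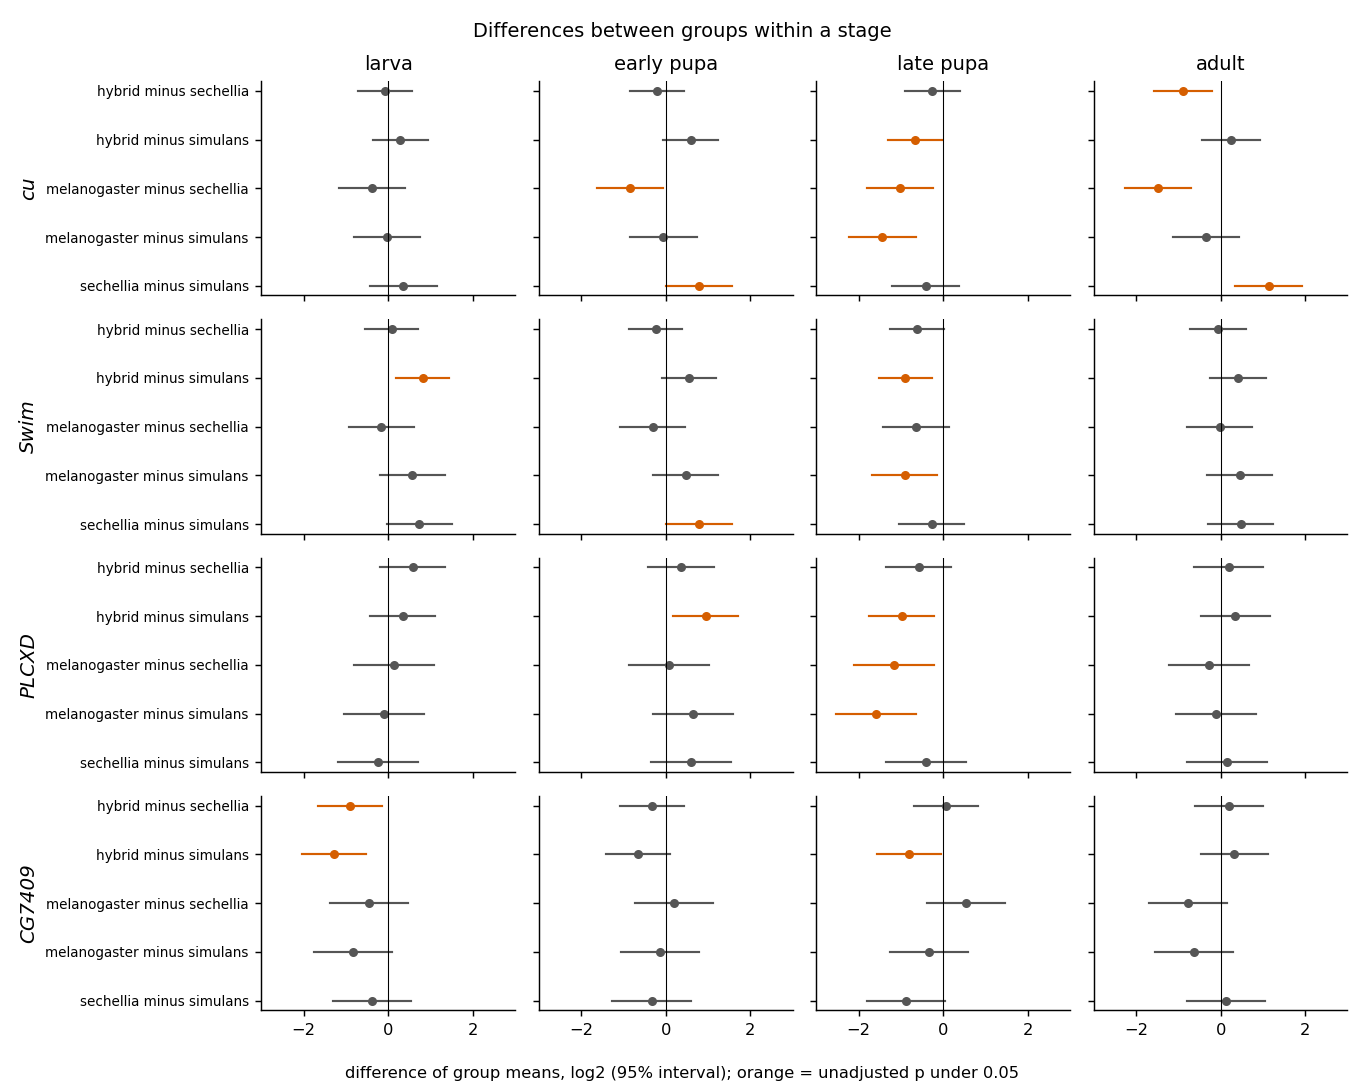
Differences between groups (log2, first named minus second) with 95% intervals for the 4 genes (rows) at the 4 stages (columns). Orange marks the 19 of 80 with an unadjusted p under 0.05, 9 of them in late pupae, against 11% of such tests over all elements and 11.8% in late pupae. None passed after adjustment. Late pupal and adult levels entered the choice of the genes.

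Other genes of the families and pathways of the 4 genes were few among the named elements with values. Among the chaperones, Hsp68, Hsc70-5 and DnaJ-1 were tested in adults against late pupae in the mean of the 3 species, and 0 of 3 were called, where 14.6% of all elements were, and in hybrids 0 of 4, where 12.2% were. The median of the 3 genes in the species mean was 0.18, against -0.01 over all elements. Against larvae, adults were called higher in that mean for Hsc70-5, by 1.01 (adjusted p = 0.00214), and for DnaJ-1, by 0.67 (adjusted p = 0.0376). Hsp68 was not called there, at -0.28. Of all elements, 18.9% were called higher in that comparison. Hsp68, a stress-induced chaperone of the Hsp70 family, stood at -2.37 in hybrids and -2.90 in D. melanogaster, with -1.52 in D. sechellia and -1.47 in D. simulans in adults, with no adult high of the kind CG7409 had. Hsp26, a small heat shock protein as CG7409 is, rose in hybrid early pupae by 2.75 relative to larvae (adjusted p = 0.000157) and stood at -2.60 in hybrid adults. In the hybrids CG7409 and Hsp26 thus peaked at different stages.

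Of the phosphoinositide enzymes, 3 besides PLCXD were tested in adults against late pupae, where 14.6% of all elements were called in the species mean and 12.2% in hybrids. Pis, the phosphatidylinositol synthase that makes the lipid such enzymes act on, rose by 1.10 in the mean of the 3 species (SE 0.23, adjusted p = 0.0034) and by 1.11 in hybrids (adjusted p = 0.00878). Its adult means were 1.97 in hybrids and 2.15 in D. melanogaster, with 1.84 in D. sechellia and 1.90 in D. simulans, against late pupal means of 0.86 in hybrids and 0.82 in D. melanogaster, with 0.79 in D. sechellia and 0.98 in D. simulans. Pi3K92E and Sac1 differed by 0.34 and -0.10 and were not called. Of the eclosion list only Timp, the inhibitor of matrix metalloproteinases, had values. It rose by 1.32 in the species (SE 0.21, adjusted p = 0.000269) and by 1.28 in hybrids (adjusted p = 0.00112) in adults relative to late pupae. It also rose in early pupae relative to larvae, by 0.67 in the species (adjusted p = 0.0252) and by 0.95 in hybrids (adjusted p = 0.00325).

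None of the clock genes Clk, Pdp1 and cwo, the deadenylation genes Not3, Rga, PAN3 and pAbp, the Wingless pathway genes dsh and lgs or the papain-like protease gene CG6357 was called in adults against late pupae in the mean of the 3 species. In that comparison 14.6% of all elements were called. The medians were -0.02 for the 3 clock genes, -0.11 for the 4 deadenylation genes and -0.08 for the 2 Wingless pathway genes. From larvae to early pupae, CG6357 rose by 1.13 in the species (adjusted p = 0.00124) and by 1.13 in hybrids (adjusted p = 0.00143), where Swim, of the same protease family, fell in the hybrids. CtsL1 and CtsB of that family were also tested in the hybrids and were not called, at 0.63 and 0.52 (adjusted p = 0.185 and 0.0904). For the clock, deadenylation and Wingless lists no other gene than Swim was called in that comparison.

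The stage labels were checked on other genes. Eig71Ed, induced by ecdysone at pupariation, rose in early pupae relative to larvae by 4.84 in the mean of the 3 species. The larval fat body genes Fbp1 and Fbp2 fell in adults relative to late pupae by 2.24 and 2.84 in the same mean. Neither was called between larvae and early pupae, at 0.56 and -0.31, so they do not set those stages apart. A mean over the species does not show whether the species match each other within a stage. Of 11 adult eye genes listed, 1 could be tested, the photoreceptor arrestin gene Arr1. It was not called in adults against late pupae, at -0.28 in hybrids and 0.19 in the mean of the 3 species. Nor was it called against larvae in the species, at -0.22, so no test of a listed eye gene stands behind the adult label. Another gene of that list, inaD, had values only in D. sechellia and was not tested. Its means there were 3.04 (adults), 0.95 (late pupae), -1.23 (early pupae) and -1.17 (larvae), highest at the adult stage. Of 6 muscle genes only Mp20 was called higher in adults than in late pupae in the mean of the 3 species, by 2.77, where 8.48% of all elements were. All 5 testis genes measured were called higher in adults than in larvae in the species, with a median of 2.07. Of all elements, 18.9% were called higher there and 39.1% in either direction. Between adults and late pupae, the comparison in which the 4 genes were chosen, 0 of 5 were called. Whether the share of a tissue in the body takes part in their rise was not tested. Over the elements with values on all arrays, array medians lay between -0.09 and 0.15 and array SDs between 0.82 and 1.16.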

How the data were processed

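RNA of whole males was hybridized to 2-colour D. melanogaster cDNA arrays (12Kv2), the sample in Alexa647 and the common reference in Alexa555, without dye swaps. The authors quantified the spots, dropped failed and dim ones, and retained an element for a species, or for the hybrids, where both its spots were usable on each of the 12 arrays. They then corrected every array with the spatial-intensity loess of R/maanova. Values were deposited as log2(sample/reference), 1 per spot. All 48 columns were used, the scanner values were not, and no depth applies to arrays, whose number limits the precision.

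The 2 spots of an element were averaged. Names came from the probe annotation and from the gene names in the first 1317 rows of the study's spot list. Arrays of a group whose differences between duplicate spots correlated above 0.5 were taken as near-identical (7 pairs, of which 6 in the species had 0.93 to 0.97 and 1 in hybrid adults had 0.61, with all 41 others between -0.03 and 0.04) and merged. Such differences within sampling noise may mean 1 hybridization deposited more than once. Technical arrays of a species were then averaged, which left 23 units and 7 residual degrees of freedom. Only the hybrids thus measure spread between pools, and the species were given the same spread (limma 3.58.1 in R 4.3.3, prior degrees of freedom 9.73). All p-values, also those between species, rest on the spread between hybrid pools and on that prior. They measure no spread between pools of a species. Benjamini-Hochberg adjustment ran over all elements tested in a comparison. The fit was tested on simulated data. Tables and figures were made with Python 3.11.15, pandas 2.3.3, numpy 2.4.6 and matplotlib 3.10.9.

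The 4 genes, the lists of related genes (chaperones, clock, deadenylation, Wingless signalling, papain-like proteases, phosphoinositide enzymes, eclosion) and the stage and tissue markers were chosen with earlier results of these data known. Besides the 4 genes, the text names the 5 elements most like each over the 16 group means, and list genes that were called or that a sentence turns on. Alternatives were every array as a replicate with and without a replicate block, leaving out replicates, other scalings, single spots and other element sets. Samples sharing a replicate number did not deviate together (median r 0.01 over 360 pairs of arrays of different groups), so the numbers pair nothing. The early pupal time is that of the labels, and the study's methods give another. No sequences and no coordinates were used here.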

Additional observations from a re-analysis of the deposited data

How the results depend on the processing

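Adults were above every array of the other stages in 16 of 16 cases under all 7 alternatives run for levels. The calls were less stable. From larvae to early pupae, 1 of 16 was called, and 12 of 27 alternatives gave the same count. The same count was not always the same call. Without replicate 1 of every group, and without hybrid early pupal replicate 1, the call was that of cu in hybrids and not that of Swim. Every array as a replicate gave 6, and 6 again with the replicate number as a replicate block. Not merging near-identical arrays gave 2, equal array SDs 2, only elements on all arrays 2, 1 element per gene 2 and the second spot alone 0. Keeping hybrid adult arrays 1 and 2 apart, an alternative chosen after seeing the data, gave 2. Leaving out replicates gave 0 to 3. The call of Swim in hybrids had an adjusted p between 0.0122 and 0.287 over its alternatives, always with the same direction. For CG7409 in the mean of the species, quantile normalization turned the difference to 0.10 (adjusted p = 0.801), and cu there was called with equal array SDs (0.64, adjusted p = 0.039) and quantile normalization (0.64, adjusted p = 0.0403). The cause was not tested.

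Between groups within a stage 0 of 80 were called. Every array as a replicate gave 31, with the replicate block also 31, and it counts repeat hybridizations of 1 pool as replicates. Without merging near-identical arrays 1 was called, cu between D. melanogaster and D. simulans late pupae, and likewise 1 with the hybrid adult arrays kept apart. Leaving out replicates gave 0 to 4, the highest without hybrid larva replicate 1 and without replicate 1 of every group. Pis and Timp were called in adults against late pupae under all 27 alternatives, added after seeing the data. The limits are the 1 pool per species and stage, and hybrid pools as the only measure of spread.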
